A study of Homo sapiens with 4 samples.

Results

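Vimentin, 6 keratins and 3 lamins were followed in the parental breast cancer line and its brain metastatic derivative. The genes were taken by name (VIM, KRT7, KRT8, KRT18, KRT19, KRT80, KRT81, LMNA, LMNB1 and LMNB2), and all 10 were found among the 15279 named genes of the table. All 10 also passed the filter on low values, which left 14424 genes for testing. MDA-MB-231, labelled MDA231-P, is a triple-negative human breast cancer line with a spindle-shaped, mesenchymal form. MDA231-BR is labelled as its brain metastasis counterpart, MDAMB231Br. Both lines grew in DMEM with 10% FBS and PS, without treatment, and each gave 2 libraries, called A and B here in column order. Whether both libraries of a line were grown as separate cultures is not stated, so the spread behind each p-value is that of library pairs and may be technical. RNA was isolated with a mirVana kit, and brain metastasis is represented by this 1 derived line.

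Intermediate filaments are built from a protein family that shares a coiled-coil rod. Vimentin is the type III filament protein of mesenchymal cells, and epithelial cells that turn mesenchymal usually gain it. Keratins form filaments as obligate pairs of a type I and a type II chain, and simple epithelia, including luminal breast cells, make mainly KRT8, KRT18, KRT19 and KRT7. Lamins line the inner nuclear membrane, where A-type lamins (lamin A and lamin C, both from LMNA) set much of the stiffness of the nucleus and B-type lamins are anchored in the membrane by a lipid tail. MDA-MB-231 is known for holding vimentin beside residual simple keratins.

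The family likeness can be seen in the 30 coding bases that end the rod, a stretch printed here because it is among the most conserved parts of these genes. The bases come from GENCODE v29 transcripts, are written 5′ to 3′, and are in capitals where they equal those of VIM at the same place.
VIM: ACCTACAGGAAGCTGCTGGAAGGCGAGGAG
KRT8: ACCTACAGGAAGCTGCTGGAgGGCGAGGAG
KRT7: ACCTACcGcAAGCTGCTGGAgGGCGAGGAG
KRT80: ACCTACAGGAAGCTGgTGGAgGGCGAGGAG
KRT18: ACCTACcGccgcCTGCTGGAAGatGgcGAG
KRT19: ACCTACcGcAgcCTGCTcGAgGGacAGGAa
LMNB1: gCtTACAGGAAaCTctTaGAAGGCGAaGAa
KRT8 shared 29 of the 30 bases with VIM, KRT80 shared 28 and KRT7 27. KRT81 and LMNB2, not printed, shared 26 each. LMNB1 shared 22, and the type I keratins KRT18 and KRT19 shared 21 each. Over the whole coding sequence the members were far less alike, with 67.7% identity between KRT7 and KRT8, 58.5% between KRT18 and KRT19, 60.5% between LMNB1 and LMNB2 and 53.8% between VIM and KRT8.

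VIM was higher and KRT7 lower in the brain metastatic line, and these were the 2 members that passed the test. VIM was 2.94-fold higher, and KRT7 stood at 0.160 of its parental level. The other 8 genes did not pass, among them LMNA, whose values lay higher in both brain metastatic libraries, and LMNB2, KRT80 and KRT8, whose values lay lower in both. The test was limma-trend on log2(normalized count + 1), with p-values adjusted over all 14424 genes by the Benjamini-Hochberg method and a threshold of 0.05. With 1 of 10 members higher and 1 of 10 lower, the counts stand beside 8.61% of all tested genes called higher and 5.8% called lower, or 14.4% in either direction. The median log2 fold change of the 10 members was -0.12, against 0.01 over all tested genes. The libraries of the lines did not overlap for 7 of the 10, with 3 higher and 4 lower, beside 61.3% of all tested genes (31.7% higher and 29.7% lower). The alternatives quoted below called different shares of all genes. These were 15.4% with edgeR and 20.2% with DESeq2 on reads recovered from the values, and 3.84% with no filter on low values. A fit without 1 library leaves its line with 1, so its p-values rest on the spread of the other line's pair alone. Leaving out parental library A gave 2.92% and leaving out its partner B 2.97%, whereas leaving out library A of the brain metastatic pair gave 36.4% and leaving out its partner 21.8%.

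**Figure D1:**
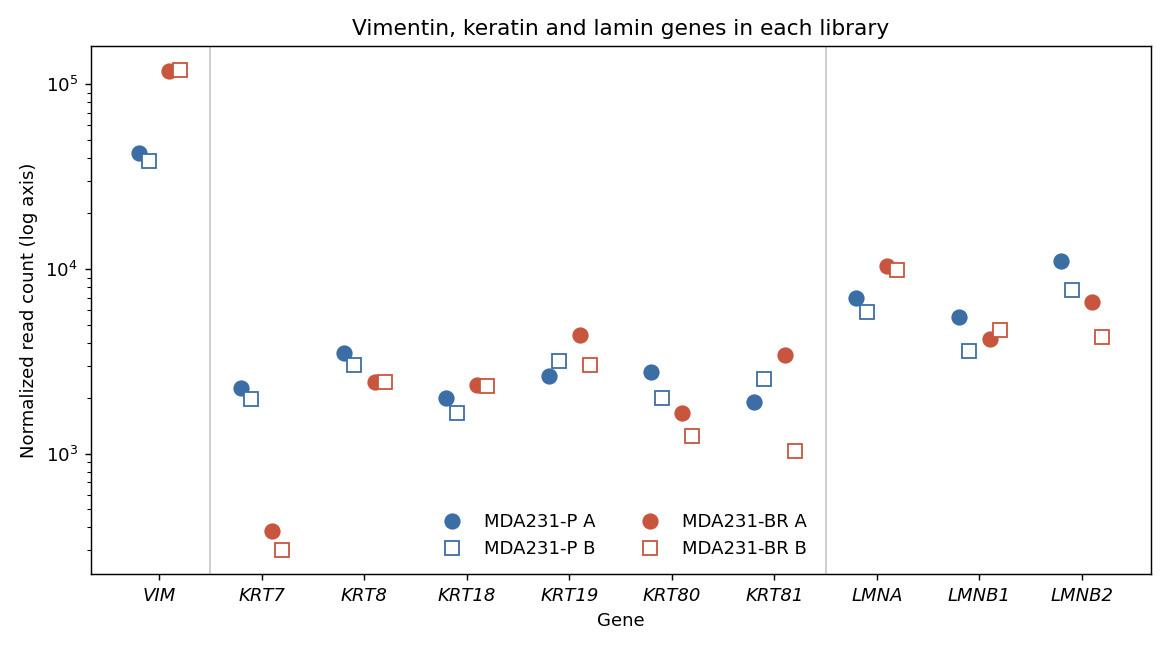
Normalized read count (log axis) of the 10 genes in each of the 4 libraries, with filled circles for library A and open squares for library B (blue, MDA231-P; red, MDA231-BR). VIM stands at 118095 and 119552 in MDA231-BR against 42476 and 38423 in MDA231-P, and KRT7 at 383 and 301 against 2284 and 1979; the 2 red KRT81 points are the farthest apart of any pair.

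The libraries held 25835225 to 30771290 reads in named genes, and 0.853 to 1.06 normalized counts stood for 1 read. A typical tested gene differed by 0.26 (median absolute log2 difference) within the parental pair, by 0.38 within the brain metastatic pair and by 0.47 from line to line. Transcript length moved with the library. For the 3356 genes whose longest transcript is under 2000 bases, the median log2 difference of library A minus library B was -0.26 in MDA231-P and 0.39 in MDA231-BR, and for the 3913 genes of 5000 bases or more it was 0.14 and -0.26. Between the lines, those groups had median log2 fold changes of -0.27 and 0.18. Brain metastatic library B also held 0.170% of its reads in 15 mitochondrial pseudogenes, against 0.0425% to 0.0483% in the others. The part of length or of this share in the results on single genes was not tested.

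Genes of the profile known for MDA-MB-231 were abundant in both lines. The summed normalized count of VIM, CD44, AXL, MSN, CAV1 and EGFR was 148196 to 167117 in the parental and 258773 to 308364 in the brain metastatic libraries. VIM, itself a gene followed here, and MSN were called higher. CAV1 was called lower, at 27966 and 27283 in the parental and 10799 and 9773 in the brain metastatic libraries. The other 3 did not pass. The defining epithelial gene CDH1 had at most 14.8 normalized counts and the oestrogen receptor gene ESR1 at most 26.5 in any library. Of 14 luminal or normal breast markers 11 had a row, their sum was 2189 to 2900 in the 4 libraries, and 1 of 8 tested was lower. CLDN4 was the marker called lower, at 1049 and 1241 in the parental and 392 and 465 in the brain metastatic libraries. CLDN7 measured 455 and 836 in the parental and 1263 and 1067 in the brain metastatic libraries. EPCAM measured 333 and 398 against 91.2 and 227, and GATA3 301 and 227 against 237 and 260. Of the 7 fibroblast markers none had a row. The astrocyte or neuron markers (2 of 8 with a row) summed to 64.0 and 98.0 in the parental and 146 and 223 in the brain metastatic libraries, with none of 2 called. Endothelial markers (4 of 6) summed to 130 and 239 in the parental and 776 and 862 in the brain metastatic libraries, with 2 of 3 tested higher. KDR measured 53.8 and 77.6 against 520 and 603, and TIE1 4.27 and 10.7 against 58.6 and 40.3, and both were called. PECAM1 measured 70.8 and 146 against 193 and 218 and did not pass, and CDH5 had at most 4.80. The blood or microglia list was represented by CSF1R alone, at 264 and 338 in the parental and 33.6 and 55.1 in the brain metastatic libraries, and called lower. The melanocyte markers (2 of 6) summed to 842 to 1826, with none of 2 called. Their part in the results on filament genes was not tested.

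Vimentin. VIM had normalized counts of 42476 and 38423 in the parental libraries and 118095 and 119552 in the brain metastatic libraries, in the order A, B used for every pair of values. The lines were well apart, and the brain metastatic libraries were nearly equal. Their means were 40450 ± 2866 and 118823 ± 1030 (SD, n = 2 each), and the log2 fold change was 1.56 ± 0.23 SE with a 95% confidence interval of 1.03 to 2.08 (limma adjusted p = 0.00473). VIM took 0.162% and 0.144% of parental reads and 0.438% and 0.437% of brain metastatic reads. By normalized count per gene it ranked 18 and 26 in the parental libraries and 2 and 4 in the brain metastatic ones. The call ended when 1 parental library was left out, with a log2 fold change of 1.63 (adjusted p = 0.0769) without library A and 1.48 (adjusted p = 0.101) without library B, and when no filter on low values was used (adjusted p = 0.0701).

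The 250 bases before the VIM start annotated by RefSeq are shown, since VIM was the member that rose. They lie at chr10:17227991-17228240 on the plus strand of GRCh38.p14, and the start site of the table is 18 bases before that of the GENCODE coding transcript. Capitals mark the GC box.
VIM: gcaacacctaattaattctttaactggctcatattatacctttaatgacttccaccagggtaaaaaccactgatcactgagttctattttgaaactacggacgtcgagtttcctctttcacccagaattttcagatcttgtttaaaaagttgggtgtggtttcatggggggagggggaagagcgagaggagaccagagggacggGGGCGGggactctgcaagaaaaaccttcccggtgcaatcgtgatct
The window held 1 GC box (GGGCGG, both strands searched), 46 bases before the start. Of 35116 promoter windows of this length in the table, 42.6% hold at least 1. No match was found for the E-box letters CAGGTG bound by SNAI and ZEB factors, present in 17.5% of windows, for the AP-1 letters TGACTCA, present in 4.20%, or for TATAAA, present in 10.7%. These are letter matches in this 1 window only, and binding was not measured. Sequence outside the window, including that at any other VIM start site, was not searched, so the absences hold for these 250 bases alone.

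VIM-AS1, an antisense RNA gene that overlaps VIM by 1727 bases on the other strand, had values on the opposite side. Its normalized counts were 429 and 621 in the parental and 311 and 255 in the brain metastatic libraries, so the lines did not overlap. It did not pass (log2 fold change -0.87 ± 0.29 SE, limma adjusted p = 0.0855), although DESeq2 on recovered reads called it (adjusted p = 0.0407). The strand setting of the counting is not given in the sources used here, so reads of overlapping genes on opposite strands cannot be told apart. The 3 genes whose profile over the 4 libraries was nearest to that of VIM, by root mean square distance of centred log2 values among 11797 genes with at least 100 normalized counts in 1 line, were TSHZ1 (0.0344), SGK1 (0.0371) and PPM1H (0.0460). Of the other intermediate filament genes on the list, 3 of 12 had a row and none of 3 passed. NES, which encodes nestin, measured 363 and 391 in the parental and 609 and 645 in the brain metastatic libraries (adjusted p = 0.0852). SYNM, which encodes synemin, measured 851 and 714 against 719 and 1562, with brain metastatic library B apart from the other 3 (adjusted p = 0.435).

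Keratins. KRT7, a type II keratin of simple glandular epithelium, had normalized counts of 2284 and 1979 in the parental libraries and 383 and 301 in the brain metastatic libraries. Every parental value was at least several times every brain metastatic one. The means were 2131 ± 216 and 342 ± 58.1 (SD, n = 2 each), the log2 fold change was -2.64 ± 0.25 SE with a 95% confidence interval of -3.22 to -2.07, and the limma adjusted p was 0.000771. The call held in each of the 15 alternative analyses, with log2 fold changes from -2.82 to -2.47. The highest adjusted p was 0.0297, with no filter on low values. In bulk RNA, fewer cells with KRT7 and less KRT7 RNA per cell cannot be told apart. The antisense gene KRT7-AS, which overlaps KRT7 by 2401 bases, was at 11.9 and 13.6 in the parental and 0 and 7.42 in the brain metastatic libraries and did not pass (adjusted p = 0.171). The annotated body of KRT86, a hair keratin gene described with KRT81, also overlaps that of KRT7, by 2887 bases on the same strand.

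KRT8 and KRT18, the type II and type I chains of the first keratin pair made in simple epithelia, lay on opposite sides of their parental values. KRT8 measured 3504 and 3023 in the parental and 2452 and 2438 in the brain metastatic libraries. KRT18 measured 2018 and 1670 in the parental and 2368 and 2321 in the brain metastatic libraries. In both genes the lines did not overlap and the brain metastatic libraries were close together. Neither passed, with log2 fold changes of -0.41 (95% confidence interval -0.92 to 0.09, limma adjusted p = 0.233) for KRT8 and 0.35 (-0.17 to 0.87, adjusted p = 0.318) for KRT18. Per kilobase of the longest transcript, the ratio of the KRT8 level to the KRT18 level was 1.27 and 1.32 in the parental and 0.755 and 0.767 in the brain metastatic libraries. The absolute ratio depends on the lengths taken, whereas its fold between the lines, 0.588, does not. With 2 libraries a line, the smallest p an exact two-sided permutation test allows is 0.33, so ratios are given without a test.

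KRT8 and KRT18 have many processed pseudogenes, and their annotated gene bodies overlap by 1084 bases on opposite strands. Rows for 6 KRT8 pseudogenes held 8% to 9.72% of the KRT8 sum, and rows for 9 KRT18 pseudogenes 3.74% to 6.62% of the KRT18 sum. Their transcripts matched the parent genes at 86.2% to 97.1% identity for KRT8 and 87.8% to 93.2% for KRT18, with identical runs of up to 133 and 97 bases. How the authors' counting split such reads is not given in the sources used here. With the pseudogenes added, both genes stayed on the same side of 0 and of the threshold.

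KRT19, the type I keratin without a tail domain, measured 2624 and 3186 in the parental and 4375 and 3009 in the brain metastatic libraries. Brain metastatic library A was apart, and library B lay between the parental values, so the lines overlapped (log2 fold change 0.33, 95% confidence interval -0.27 to 0.92, limma adjusted p = 0.418). Its 3 nearest profiles by the same measure were those of SLC39A4 (0.0111), PIN4 (0.0158) and SPG21 (0.0201). KRT80, a type II keratin of differentiating epithelia, measured 2783 and 2002 in the parental and 1668 and 1245 in the brain metastatic libraries. Both brain metastatic values were below both parental ones, but KRT80 did not pass (log2 fold change -0.71, 95% confidence interval -1.33 to -0.10, adjusted p = 0.112). Without brain metastatic library A its log2 fold change was -0.92.

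KRT81, a type II hair keratin, measured 1907 and 2555 in the parental libraries, 3426 in brain metastatic library A and 1038 in library B. The brain metastatic values lay on both sides of the parental ones. Its difference between those libraries, 1.72 on the log2 scale, was larger than that of 97.3% of tested genes. The log2 fold change was -0.23 ± 0.49 SE (limma adjusted p = 0.781), and it was -1.09 without library A and 0.63 without library B. KRT81 has a longest transcript of 1929 bases and KRT19 one of 1390. Library A minus library B on the log2 scale was -0.42 for KRT81 and -0.28 for KRT19 in MDA231-P, and 1.72 and 0.54 in MDA231-BR. For KRT7, with 1754 bases, it was 0.21 in MDA231-P and 0.35 in MDA231-BR. The medians for transcripts under 2000 bases were -0.26 and 0.39. The part of length in these differences was not tested.

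KRT81 is nearly a copy of its neighbour KRT86, with 90.1% coding identity and an identical run of 605 bases, and the annotated genes overlap by 5622 bases on opposite strands. The 60 coding bases (1249 to 1308, counted from the start codon) where they differ most are shown with the 14 different bases in capitals, because only such places tell their reads apart.
KRT81: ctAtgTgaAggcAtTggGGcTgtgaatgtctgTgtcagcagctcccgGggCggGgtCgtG
KRT86: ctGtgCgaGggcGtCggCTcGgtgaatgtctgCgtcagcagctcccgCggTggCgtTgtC
KRT86 itself was at 89.6 and 101 in the parental and 125 and 82.7 in the brain metastatic libraries, which is 3.52% to 7.37% of the sum of both. KRT81 is therefore uncertain.

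Of the other 49 keratin genes on the list, 6 had a row, 4 were tested and none passed. The most abundant was KRT10, with 1028 and 1377 in the parental and 1278 and 717 in the brain metastatic libraries (limma adjusted p = 0.539). The basal keratin gene KRT5 had at most 3.88 normalized counts and KRT16 at most 2.12. Of the 6 keratins followed here, 5 lie on chromosome 12, in the order KRT80, KRT7, KRT81, KRT8 and KRT18, and in that order their log2 fold changes were -0.71, -2.64, -0.23, -0.41 and 0.35. Neighbouring keratin genes thus had values on both sides of 0, and KRT7 alone among them passed.

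**Figure D2:**
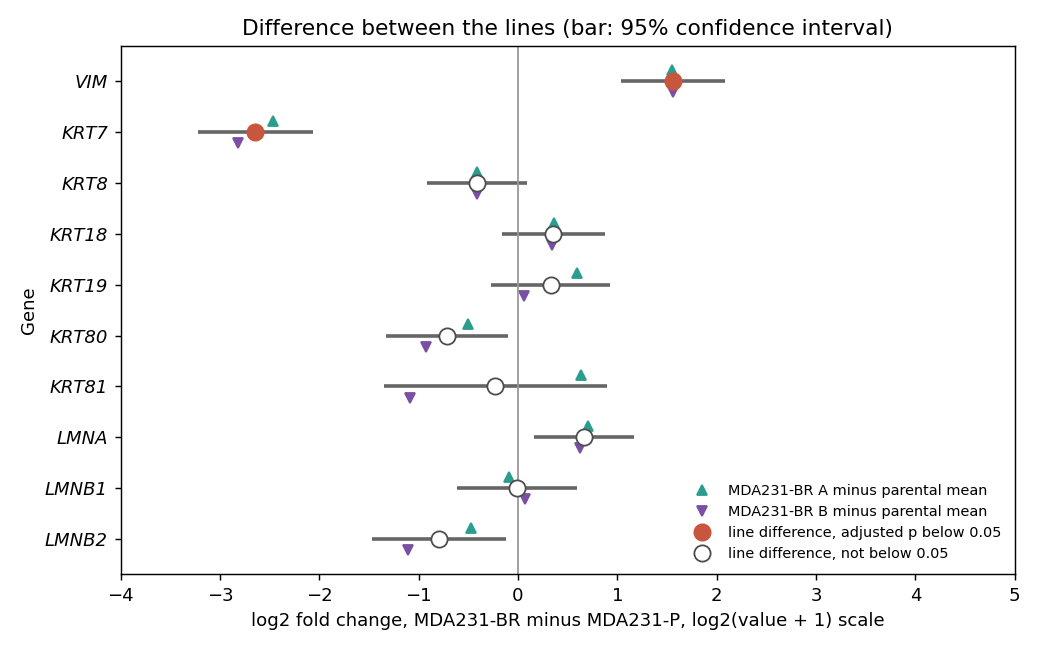
Log2 fold change of each gene, MDA231-BR minus MDA231-P on the log2(value + 1) scale, with its 95% confidence interval as a bar and each brain metastatic library minus the parental mean as triangles. VIM (1.56) and KRT7 (-2.64) passed the test, and the 2 triangles of KRT81 lie on opposite sides of 0, at 0.63 and -1.09.

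Lamins. LMNA measured 6989 and 5875 in the parental and 10443 and 9845 in the brain metastatic libraries. The lines did not overlap, and each brain metastatic library was above the parental mean, by 0.70 and 0.62 on the log2 scale. The means were 6432 ± 788 and 10144 ± 423 (SD, n = 2 each), with a log2 fold change of 0.66 ± 0.22 SE (95% confidence interval 0.16 to 1.17). LMNA did not pass (limma adjusted p = 0.0807), nor in any of the 15 alternatives, where adjusted p ranged from 0.0576 to 0.526. Gene counts do not separate lamin A from lamin C. Genes with profiles near that of LMNA by the same measure were SPPL3 (0.0249) and INTS5 (0.0292).

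LMNB2 measured 11116 and 7733 in the parental and 6663 and 4288 in the brain metastatic libraries. Both brain metastatic values were below both parental ones, and library A was the higher of each pair. The log2 fold change was -0.79 ± 0.29 SE (95% confidence interval -1.47 to -0.12, limma adjusted p = 0.106). LMNB2 was called without brain metastatic library A (log2 fold change -1.11, adjusted p = 0.000543) and lay just above the threshold with DESeq2 (adjusted p = 0.0512). LMNB1, whose loss marks senescent cells, measured 5514 and 3602 in the parental and 4193 and 4684 in the brain metastatic libraries. The brain metastatic values lay between the parental ones, and the log2 fold change was -0.01 (95% confidence interval -0.61 to 0.59, adjusted p = 0.986). Of 22 proliferation genes, with a list median of -0.28, none was higher and 2 were lower, beside 8.61% and 5.8% of all tested genes. The 2 were the replication licensing gene MCM7 (log2 fold change -0.87) and the thymidylate synthase gene TYMS (-0.83). Neither was called without 1 of the parental libraries.

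Per kilobase, the ratio of LMNA to the sum of LMNB1 and LMNB2 was 0.552 and 0.684 in the parental and 1.24 and 1.36 in the brain metastatic libraries. Both brain metastatic ratios were above both parental ones. Their place against 1 depends on the lengths taken, since with coding lengths the ratios were 0.385 and 0.475 in the parental and 0.879 and 0.994 in the brain metastatic libraries. The mean ratio was 0.618 ± 0.0932 and 1.30 ± 0.0839 (SD, n = 2 each), a fold of 2.11. The summed lamin level differed little, at 6158 and 4534 per kilobase in the parental and 5907 and 5352 in the brain metastatic libraries, and those ranges overlapped.

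Taking all members per kilobase, VIM led in both lines, at 15172 ± 1075 normalized counts per kilobase in MDA231-P and 44570 ± 386 in MDA231-BR (SD, n = 2 each). In MDA231-P it was followed by KRT19 (2090 ± 286), LMNB2 (2018 ± 512) and LMNA (2016 ± 247), which did not differ beyond their spread. LMNB1 (1312 ± 389), KRT7 (1215 ± 123), KRT81 (1157 ± 238) and KRT8 (1140 ± 119) also lay within each other's spread, above KRT18 (883 ± 118) and KRT80 (614 ± 142). In MDA231-BR, LMNA (3180 ± 133) and KRT19 (2656 ± 695) came next and did not differ beyond the spread of KRT19. LMNB1 (1277 ± 99.9), LMNB2 (1172 ± 359), KRT81 (1157 ± 875) and KRT18 (1123 ± 16.1) were close, then KRT8 (854 ± 3.30), KRT80 (374 ± 76.8) and, last, KRT7 (195 ± 33.1). KRT7 was thus the lowest of the 10 in MDA231-BR, also with coding lengths or without length, while its parental place was 6, 8 or 9 by these choices.

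VIM made up 54.6% and 55.3% of the summed level of the 10 genes per kilobase in the parental libraries and 76.7% and 81.0% in the brain metastatic libraries. The 6 keratins made up 24.3% and 27.3%, then 13.1% and 9.32%, and the lamins 21.1% and 17.4%, then 10.2% and 9.67%. For each of these classes the lines did not overlap. The keratin sum itself was 7084 and 7115 per kilobase in the parental and 7561 and 5158 in the brain metastatic libraries, with the parental values inside the brain metastatic range. The ratio of VIM to the 6 keratins was 2.25 and 2.03 in the parental and 5.86 and 8.69 in the brain metastatic libraries. Within the keratins, KRT7 made up 18.4% and 15.9% in the parental and 2.89% and 3.33% in the brain metastatic libraries. The ratio of type II to type I keratins was 1.48 and 1.30 in the parental and 0.766 and 0.574 in the brain metastatic libraries, which did not overlap. With coding lengths it was 1.93 and 1.66 against 0.978 and 0.791, and without length 2.26 and 1.97 against 1.18 and 0.942, so the order of the lines held under these lengths and the place against 1 did not.

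**Figure D3:**
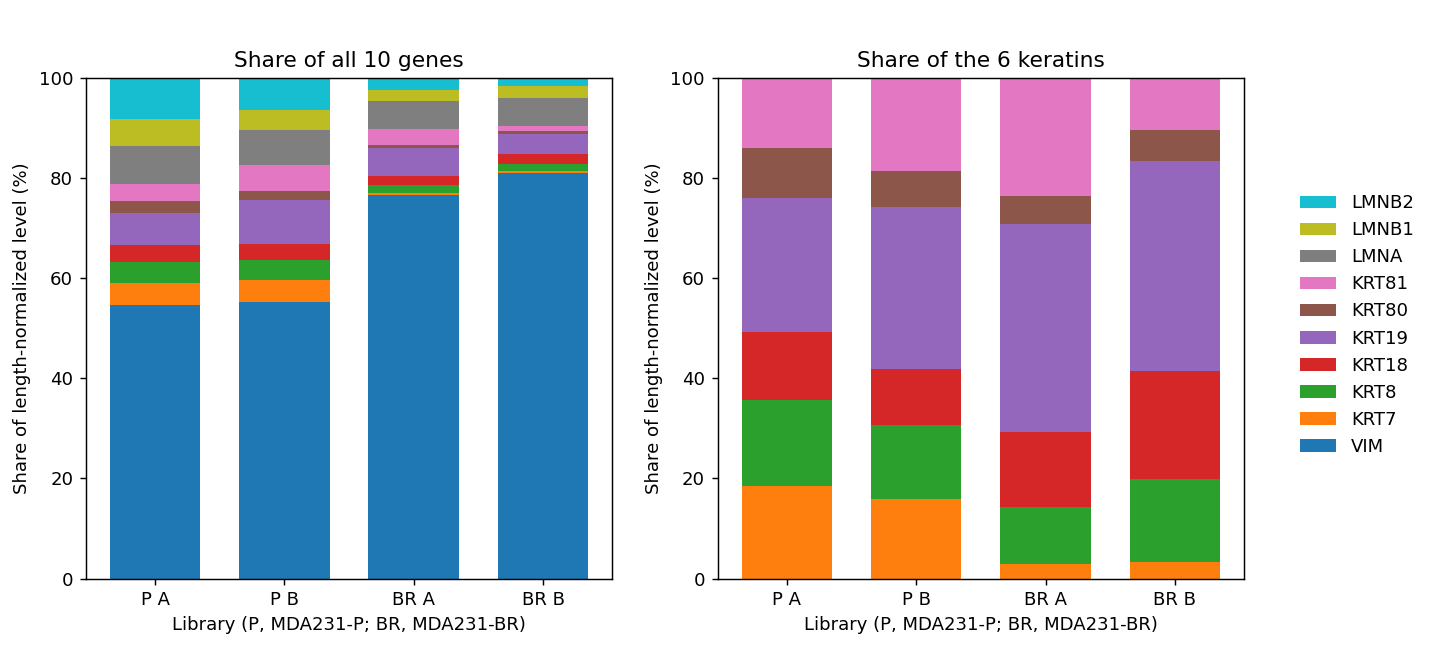
Share (%) of each gene in the length-normalized level of all 10 genes (left) and of the 6 keratins (right), 1 bar per library (P, MDA231-P; BR, MDA231-BR). VIM makes up 54.6% and 55.3% of the parental bars and 76.7% and 81.0% of the brain metastatic bars, and KRT7 shrinks from 18.4% and 15.9% to 2.89% and 3.33% of the keratins.

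Genes that tie filaments to junctions and to the nucleus. Desmosomes anchor keratin filaments at cell contacts. Of 14 desmosome genes on the list 8 had a row and were tested. In MDA231-BR 5 were higher, none was lower and 3 did not pass, beside 8.61% of all tested genes called higher and 5.8% lower. Of these 3, PERP lay lower in both brain metastatic libraries, at 4495 and 5559 in the parental against 4045 and 3714. DSG2 and PKP4 lay higher in both. The list median was 0.99, against 0.01 over all tested genes. The cadherin gene DSC2 measured 160 and 210 in the parental and 775 and 1171 in the brain metastatic libraries (log2 fold change 2.37 ± 0.31 SE, limma adjusted p = 0.00295). JUP, which encodes plakoglobin, measured 418 and 507 against 1385 and 1185 (1.47 ± 0.25 SE, adjusted p = 0.00825). DSP, PKP3 and PKP2, which encode the plaque proteins desmoplakin and plakophilins, had log2 fold changes of 1.22, 1.13 and 0.86, and lay close to the threshold (limma adjusted p = 0.0422, 0.0495 and 0.0415). Desmoplakin binds keratins directly, and its gene measured 2561 and 2020 in the parental and 3839 and 7345 in the brain metastatic libraries. Without parental library A, and likewise without library B, 1 of the 8 passed, and without either brain metastatic library 5 did. With no filter on low values 2 passed, and 4 or 5 did under the other tests, scalings, pseudocounts and filters.

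Among 15 tested cytolinker and nuclear bridge (LINC) genes, 3 were higher, 1 was lower and 11 did not pass, with a median of 0.64. Over all tested genes 8.61% were called higher and 5.8% lower. DESeq2 called 6 of the 15 higher, beside 11.3% of all tested genes. SYNE1, which encodes the nuclear envelope spectrin nesprin-1, measured 153 and 143 in the parental and 1107 and 1578 in the brain metastatic libraries (log2 fold change 3.15 ± 0.28 SE, limma adjusted p = 0.000682). SYNE3, whose product nesprin-3 links the nucleus to filaments through plectin, measured 719 and 781 against 1515 and 1950 (adjusted p = 0.0173). DSP, counted above, was the other one higher. FLG, which encodes the keratin-bundling protein filaggrin, fell from 1275 and 826 to 83.5 and 242 (log2 fold change -2.84 ± 0.48 SE, adjusted p = 0.00829) and was not called without parental library A (adjusted p = 0.0726). PLEC, the gene of plectin itself, measured 12927 and 8093 in the parental and 11609 and 35970 in the brain metastatic libraries, with library B alone apart (adjusted p = 0.200). The list median relative to the parental mean was 0.18 in brain metastatic library A and 0.79 in library B. The count of those higher fell without either parental library and grew without brain metastatic library A, as did the share of all tested genes. That count did not change without library B.

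The list of lamin partners of the inner nuclear membrane and chromatin had none of 16 tested genes called, with a median of -0.0039. The list of lamin processing enzymes had none of 7, with a median of -0.05. Both lists are loose, since the partner list holds the junction gene PLEKHA7. The processing list holds NARF and CIAO3, which do not encode processing enzymes. None was called with edgeR's quasi-likelihood test or DESeq2 on recovered reads either. Of the lamin partners, 1 was higher and 3 were lower without brain metastatic library A, and 1 was higher and 1 lower without library B. TMPO, the gene of the lamin-binding LAP2 proteins, measured 20375 and 17897 in the parental and 18674 and 18396 in the brain metastatic libraries (limma adjusted p = 0.911). ICMT, which methylates the farnesylated end of prelamin A and B-type lamins, measured 6832 and 6361 against 4887 and 4041 (adjusted p = 0.123). ICMT values were lower in both brain metastatic libraries, and its log2 fold change was -0.71 without library A.

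Regulators of mesenchymal and epithelial gene expression had values in both directions, and their action on VIM or keratin genes was not tested. Of 7 tested factors of the epithelial to mesenchymal transition (EMT), 3 were higher, 2 were lower and 2 did not pass, with a median of -0.0023. Over all tested genes 8.61% were called higher and 5.8% lower. PRRX1 rose from 3.41 and 9.70 to 68.2 and 85.8 normalized counts, and TCF4 (log2 fold change 2.13) and ZEB2 (1.55) rose too. SNAI1 (-2.79) fell from 57.2 and 59.2 to 7.68 and 7.42 normalized counts, low values in both lines, and SNAI2 (-1.23) fell too. SNAI2, the most abundant of these 5 in the parental line, measured 1537 and 1507 in the parental and 546 and 765 in the brain metastatic libraries (limma adjusted p = 0.0186). ZEB1 measured 3390 and 3761 against 3641 and 3491 (adjusted p = 0.995). On the log2(CPM + 1) scale, where low genes move less, the log2 fold changes were 1.62 for PRRX1 and -1.32 for SNAI1, both still called. None of the 7 was called higher without parental library A and 1 was without library B, and none was called lower in either case. Of 12 tested epithelial regulators, 4 were higher, none was lower and 8 did not pass, beside the same shares of all tested genes. Their median was 0.46. Without either parental library 3 were higher, and without brain metastatic library B 4 were higher and 2 lower. The ETS factor genes SPDEF (log2 fold change 3.49) and EHF (2.64) rose, as did TFAP2C (1.78) and TFAP2A (1.55). ESRP2 measured 169 and 119 in the parental and 59.5 and 92.2 in the brain metastatic libraries (limma adjusted p = 0.135). ELF3 measured 11.1 and 19.4 against 1.92 and 8.48 (limma adjusted p = 0.194). GRHL2, a factor that keeps epithelial gene expression on, had at most 1.94 normalized counts, and OVOL1 and OVOL2 were at 0 in every library.

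**Figure D4:**
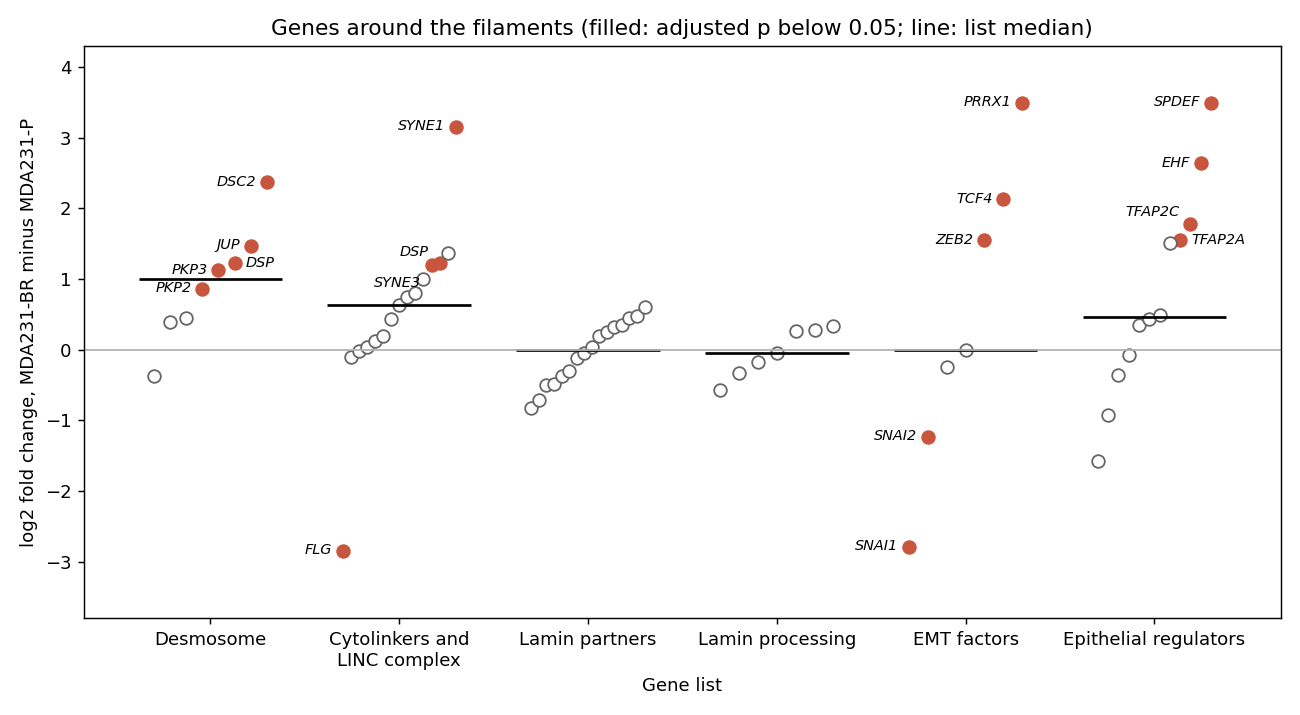
Log2 fold change (MDA231-BR minus MDA231-P) of each tested gene in 6 lists, with filled points for adjusted p below 0.05 and a line at the list median. The desmosome list has 5 filled points above 0 and none below, the lamin partner and processing lists have none, and SYNE1 (3.15) and FLG (-2.84) are the extremes of the linker list.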

How the data were processed

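RNA-seq of 4 libraries, 2 of each line, was read from 1 table. HISAT2, featureCounts and DESeq2, and GRCh37 as the build, are named in the submitters' processing notes. The annotation, strand setting and tool versions are not given there. The deposited table holds, for each gene, a read signal already divided by a size factor, and 100% of values in every library were whole multiples of 1 step (tolerance 0.01 reads), which gave the recovered reads used in alternatives. Headers name only the line, so a column has a line but no sample. The 67 unnamed rows (0.0310% to 0.0369% of reads) were left out. Paired libraries differed beyond sampling noise (chi-square of 61.4 and 124 per degree of freedom over genes).

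Genes were kept with edgeR's filterByExpr (minimum count 10, minimum total 15), which removed 855. Lines were compared with limma-trend (limma 3.58.1, R 4.3.3) on log2(value + 1), which understates the change of low genes. Alternatives used edgeR 4.0.16 (quasi-likelihood), DESeq2 1.42.0, limma-voom, other scalings, filters and pseudocounts (0.5 and 5), summed near-identical copies and each library left out. In simulated data of 14424 genes with 2 libraries a line, the test recovered 92.0% of 2-fold and 100% of 4-fold changes, and 6.80% of its calls were false. The simulation gave every gene the same dispersion, without length or library effects. Only genes with a mean of at least 50 normalized counts were changed. These shares therefore need not hold for the measured libraries. Transcript lengths, coding sequences and gene overlaps came from GENCODE v29 (GRCh38) by symbol, with 15225 of 15279 names matched. The order of the keratin genes is also that of GRCh38, which is not the build of the counts. Coordinates are given for the VIM window only. Promoter windows came from RefSeq, where 5 of the 10 members had one. Coding sequences were aligned with Biopython 1.88.

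The members and the lists around them were chosen with earlier results of these data known. Named genes were all 10 members, up to 2 called genes in each direction per list with at least 50 normalized counts in 1 line, or the most abundant member where none was called, and the 3 nearest profiles to the leading member of each class. Some items under these rules are not reported here. NES, PLEC, SYNE3, PKP2, PKP3, ZEB1, ZEB2, TFAP2A, TFAP2C, GRHL2, OVOL1, OVOL2, KRT5, KRT16, KRT86, KRT7-AS and the cell markers were named after their values were seen. So were ESRP2, ELF3, PLEKHA7, NARF, CIAO3, PERP, DSG2 and PKP4.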

Additional observations from a re-analysis of the deposited data

How the results depend on the processing

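Having 2 libraries a line limits every test here. The log2 fold changes of the 10 members kept their sign and their side of the threshold under the other tests, scalings, pseudocounts and filters and with copies summed, except that VIM was not called without a filter on low values (1.56, adjusted p = 0.0701). Without a filter 389 genes were called higher and 197 lower, 0 members were higher, and 9 genes of the surrounding lists were higher and 1 lower. DSP, FLG, SNAI2, PRRX1, MCM7 and TYMS were then not called. DESeq2 called 1287 genes lower. Leaving out 1 library in turn gave 310 to 2855 genes higher and 74 to 2402 lower, 0 to 1 members higher and 1 to 4 lower, and 5 to 24 list genes higher and 0 to 17 lower. DSP, JUP, SNAI1, SNAI2, TCF4, MCM7 and TYMS were not called without either parental library, FLG and PRRX1 not without parental library A, and TYMS also not without MDA231-BR B. The cause was not tested. The log2 fold changes then ranged from 1.48 to 1.63 for VIM, -0.95 to -0.47 for KRT80, -1.09 to 0.63 for KRT81, -0.32 to 0.30 for LMNB1 and -1.11 to -0.48 for LMNB2. KRT81 turned to 0.63 without MDA231-BR B, LMNB1 to 0.30 without MDA231-P A and 0.07 without MDA231-BR A, KRT10 (range -0.73 to 0.10) to 0.10 and SYNM (range -0.12 to 1.00) to -0.12 without MDA231-BR B, and TMPO (range -0.14 to 0.050) to 0.050 without MDA231-P A.

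With coding lengths from GENCODE, an alternative chosen after seeing the data, VIM made up 57.3% of the parental sum and the keratins 21.3%, the ratio of KRT8 to KRT18 was 1.49 in the parental and 0.878 in the brain metastatic line, and that of LMNA to the B-type lamins 0.430 and 0.937. Without length the parental shares were 53.6% for VIM, 19.6% for keratins and 26.8% for lamins, the brain metastatic shares 8.24% for keratins and 13.2% for lamins, and the ratios 1.77 and 1.04 for KRT8 to KRT18 and 0.469 and 1.03 for LMNA to the B-type lamins. The planned coding lengths from a protein table were not run. No paired analysis was possible because the columns of the table carry the line but no replicate number.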
